A study of Mus musculus with 9 samples.

Results

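The comparison described here set mouse embryonic stem (ES) cells that expressed a short hairpin RNA (shRNA) against Oct4, the transcription factor encoded by Pou5f1, against ES cells that expressed an shRNA against GFP, a jellyfish protein that mouse cells lack. It comprised the 4 arrays whose transfection labels name these hairpins, 2 for the Oct4 shRNA and 2 for the GFP shRNA, of 9 arrays in the series. The other 5 arrays, of a Wdr5 knockdown and its luciferase control on another platform, were not used. Per the labels, all 4 samples were Mus musculus ES cells of the CCE or E14T line, without stating which, and they were kept on primary mouse embryonic fibroblast feeders in medium with serum and LIF. The shared growth text lists doxycycline at 1 µg/ml for every sample, and nothing in it separates the groups. Beyond the label field, which is named transfection, the sources used here do not give how the hairpins were delivered. Nor do they give whether cells were selected or for how long the hairpins acted. The labels do not say that replicates came from separate cultures, so the p-values measure only the spread between these samples, which may be technical.

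Oct4 is a POU-domain transcription factor that, with Sox2 and Nanog, keeps ES cells and the inner cell mass pluripotent. Mouse ES cells that lose it are known to leave self-renewal and to take on features of trophectoderm, the outer epithelium of the blastocyst that gives rise to the placenta. The keratins of simple epithelia, Krt8 and Krt18, are among the first proteins by which that epithelium is recognised.

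The arrays were Illumina beadchips read in 1 colour, and each gene is given by a single probe on a normalized log2 scale, so levels are compared between arrays and never between genes. The Oct4 shRNA arrays were dimmer, with mean deposited intensities of 110 and 111, against 344 and 278 on the GFP shRNA arrays. Probes above background numbered 10331 and 11804 on the Oct4 shRNA arrays, against 10661 and 9020 on the GFP shRNA arrays, of 46643. Normalized values correlated across the 9276 genes tested at 0.989 between the Oct4 shRNA arrays, 0.978 between the GFP shRNA arrays and 0.867 to 0.891 between the groups. The part of the brightness difference in the fold changes was not tested beyond the alternative scalings given with the results.

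The hairpin's target was lower, and Krt8, Krt18, Acta2 and Nid1 were higher, with no overlap between the groups. Among all genes tested, the groups did not overlap for 38% with the Oct4 shRNA arrays higher and 34.5% with them lower. Pou5f1 had deposited intensities of 297 and 305 in Oct4 shRNA cells, against 4609 and 4137 in GFP shRNA cells. After normalization its log2 signal was 9.20 and 9.27 in Oct4 shRNA cells, against 11.44 and 11.60 in GFP shRNA cells. Pou5f1 thus stayed well above background in Oct4 shRNA cells and fell 4.85-fold (log2 fold change -2.28 ± 0.15, SE, n = 2 arrays each, limma adjusted p = 6.85e-04), and its dimmer second probe was at -1.88 on the same scale. These are bulk samples, in which fewer cells expressing a gene and less RNA per cell cannot be told apart.

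Krt8, which encodes the type II keratin 8 of simple epithelia, had a log2 signal of 14.04 and 13.84 in Oct4 shRNA cells, against 8.80 and 8.64 in GFP shRNA cells. Its partner in the keratin filament, Krt18, had 13.28 and 13.04 in Oct4 shRNA cells, against 7.07 and 6.42 in GFP shRNA cells, where it was above background on 1 of the 2 arrays. Both arrays with the Oct4 hairpin lay far above both with the GFP hairpin for each keratin, by 5.22 ± 0.16 for Krt8 and 6.42 ± 0.25 for Krt18 (log2 fold change, SE). Acta2, the gene of smooth muscle actin, had the largest rise of all genes detected on every array, at 15.56 and 15.47 in Oct4 shRNA cells, against 8.45 and 7.39 in GFP shRNA cells. That is a log2 fold change of 7.59 ± 0.35 (limma adjusted p = 4.58e-04), with 5.69 and 4.81 from its 2 dimmer probes. Neither of these 2 probes was above background on either GFP shRNA array, so the sizes of their folds rest on background levels there. Nid1, which encodes the basement membrane linker nidogen 1, had 11.41 and 11.39 in Oct4 shRNA cells, against 7.31 and 7.61 in GFP shRNA cells (3.94 ± 0.16, SE). For each of these genes the groups lay further apart than the arrays within either group.

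**Figure D1:**
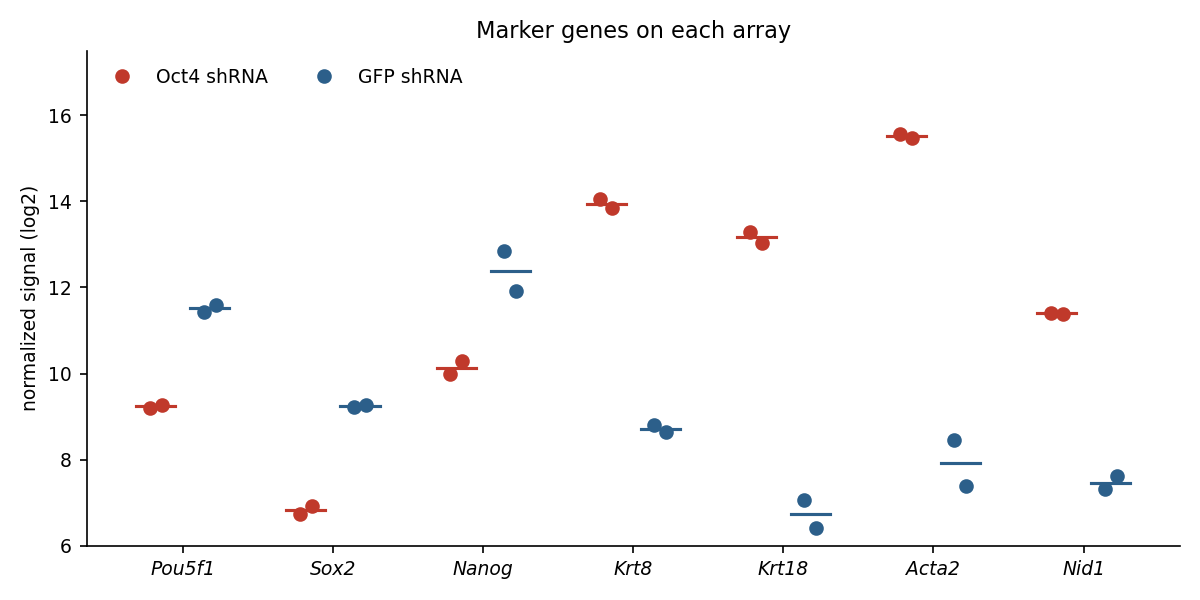
Normalized log2 signal (vertical axis) of 7 marker genes on each of the 4 arrays, with Oct4 shRNA in red on the left and GFP shRNA in blue on the right of each pair; points are arrays and lines are group means. Pou5f1, Sox2 and Nanog are lower and Krt8, Krt18, Acta2 and Nid1 higher on both Oct4 shRNA arrays than on either GFP shRNA array.

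Across all genes tested, 42.4% passed the test at a limma adjusted p under 0.05. In Oct4 shRNA cells 2250 were higher (24.3%) and 1680 were lower (18.1%), and 1131 (12.2%) rose and 682 (7.35%) fell by 2-fold or more. The groups did not overlap for 3525 genes with the Oct4 shRNA arrays higher (38%) and 3197 with them lower (34.5%). Large rises outnumbered large falls, since 72 called genes rose and 10 fell by at least 3 on the log2 scale, and 19 rose and 0 fell by at least 4. Genes near background entered these counts unequally, with 779 called genes above background on neither GFP shRNA array and 208 on neither Oct4 shRNA array. Among the 6493 genes detected on all 4 arrays, 1152 were higher (17.7%) and 1361 lower (21%). Of all calls 57.3% were rises after quantile normalization, 61.8% after cyclic loess, 51.9% on the authors' deposited log2 values and 17.4% after scaling every array to a common median over all probes. That median lies at background, since at most 25.3% of the probes on an array were detected, and this scaling shifted the median log2 fold change of all genes to -0.53, against -0.02 after quantile normalization and 0.04 after cyclic loess. The counts also fell by over 1.5 times without an Oct4 shRNA array, to 1022 higher and 610 lower without replicate 1 and to 1179 and 772 without replicate 2. Per the authors' deposited table, 3409 of the 3930 called genes had an adjusted p under 0.05 in the same direction, and 0 had a fold change of the opposite sign.

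**Figure D2:**
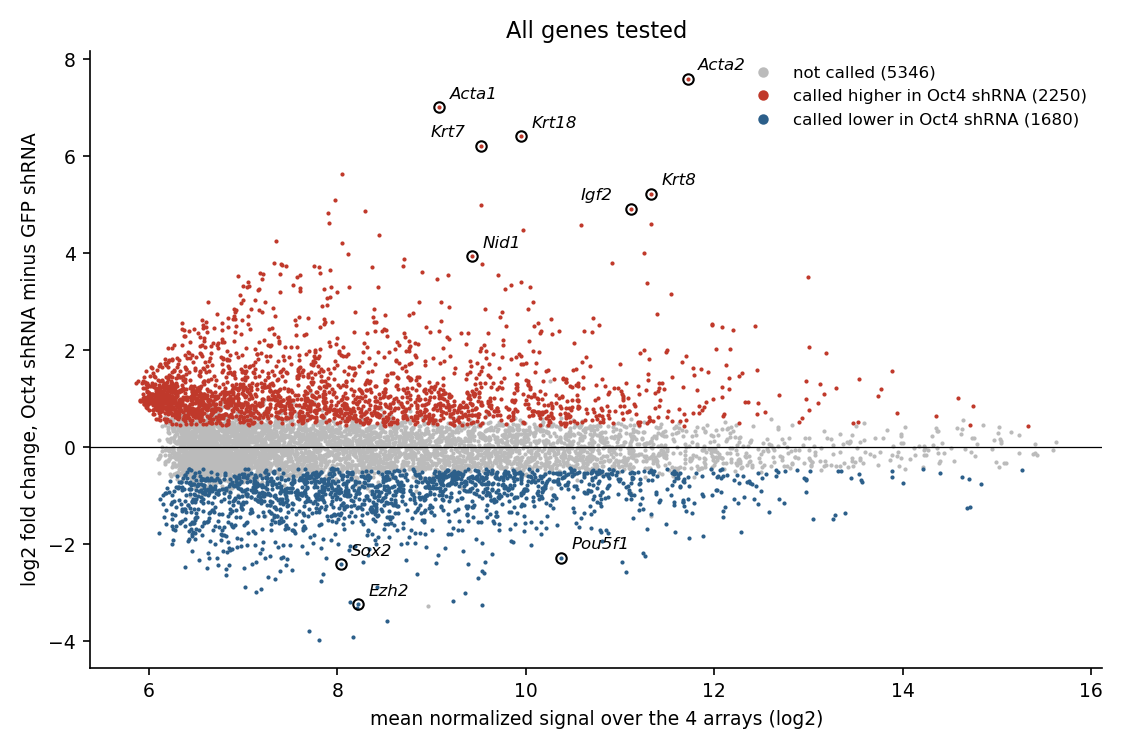
Log2 fold change of Oct4 shRNA over GFP shRNA (vertical axis) against mean normalized log2 signal over the 4 arrays (horizontal axis), with 1 point per gene, red where called higher, blue where called lower and grey where not called. Rises reach 7.59 for Acta2, while the named falls lie at -2.28 for Pou5f1 and -3.24 for Ezh2.

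The pluripotency network was lower in Oct4 shRNA cells as a group, with a set of exceptions. Of the 28 pluripotency genes tested, of 36 listed, 19 fell and 0 rose, with a median log2 fold change of -1.70, where the median of all genes was -0.02. Among the 22 of them detected on all 4 arrays, 14 fell. Sox2, which binds enhancers together with Oct4, had a log2 signal of 6.72 and 6.93 in Oct4 shRNA cells, against 9.21 and 9.28 in GFP shRNA cells (-2.42 ± 0.15, SE, limma adjusted p = 6.74e-04). Nanog, the homeodomain factor of the core network, had 9.996 and 10.28 in Oct4 shRNA cells, against 12.85 and 11.92 in GFP shRNA cells (-2.24 ± 0.32), and Zfp42 (Rex1), a zinc finger gene of the naive state, had 8.51 and 9.29 in Oct4 shRNA cells, against 10.62 and 10.21 in GFP shRNA cells (-1.52 ± 0.30). The groups did not overlap for any of these 3 genes, as for 34.5% of all genes tested with the Oct4 shRNA arrays lower. Replicate arrays lay further apart for Nanog and Zfp42 than for Sox2.

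Falls deeper than that of Sox2 were those of Eras, a Ras protein of ES cells (-3.31 ± 0.16, detected on 1 of the 2 Oct4 shRNA arrays), Gdf3, a TGF-beta family ligand (-2.60 ± 0.16), and Fbxo15, an F-box gene that Oct4 and Sox2 activate (-2.57 ± 0.20). Otx2, a homeodomain factor of the epiblast, was not above background in Oct4 shRNA cells and was at least 3.50-fold lower. A fold given as "at least" is that of a gene whose probe was not above background on either array of a group, whose level there was set no lower than the dimmest probe detected on that array. Fbxo15 had a log2 signal of 9.64 and 9.92 in Oct4 shRNA cells, against 12.16 and 12.54 in GFP shRNA cells, and Gdf3 had 8.11 and 8.40 in Oct4 shRNA cells, against 10.89 and 10.82 in GFP shRNA cells. The nuclear receptors Esrrb (-1.75 ± 0.16) and Nr5a2 (-2.01 ± 0.19), Tfcp2l1 (-1.65 ± 0.14), Klf2 (-2.04 ± 0.22), Gbx2 (-2.19 ± 0.17), Utf1 (-2.13 ± 0.14) and Tbx3 (-0.74 ± 0.14), all regulators of the ES cell state, fell too.

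Other members stood near 0 beside them. The Kruppel-like factor Klf4 had 9.15 and 8.87 in Oct4 shRNA cells, against 8.99 and 8.99 in GFP shRNA cells, a log2 fold change of 0.02 ± 0.16 (limma adjusted p = 0.933), and its relative Klf5 was at -0.07 ± 0.14. The LIF effector Stat3 was at -0.05 ± 0.15, the RNA-binding protein gene Lin28a at -0.13 ± 0.18, Sall1 at -0.10 ± 0.16 and the corepressor gene Trim28 at -0.30 ± 0.14. All of these were detected on all 4 arrays, and the groups overlapped for each of them except Trim28. Dppa3, Tdgf1, Nr0b1, Zscan10 and Mycn did not pass the filter on dim probes, and Dppa5a, Prdm14 and Rif1 had no probe by name.

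**Figure D3:**
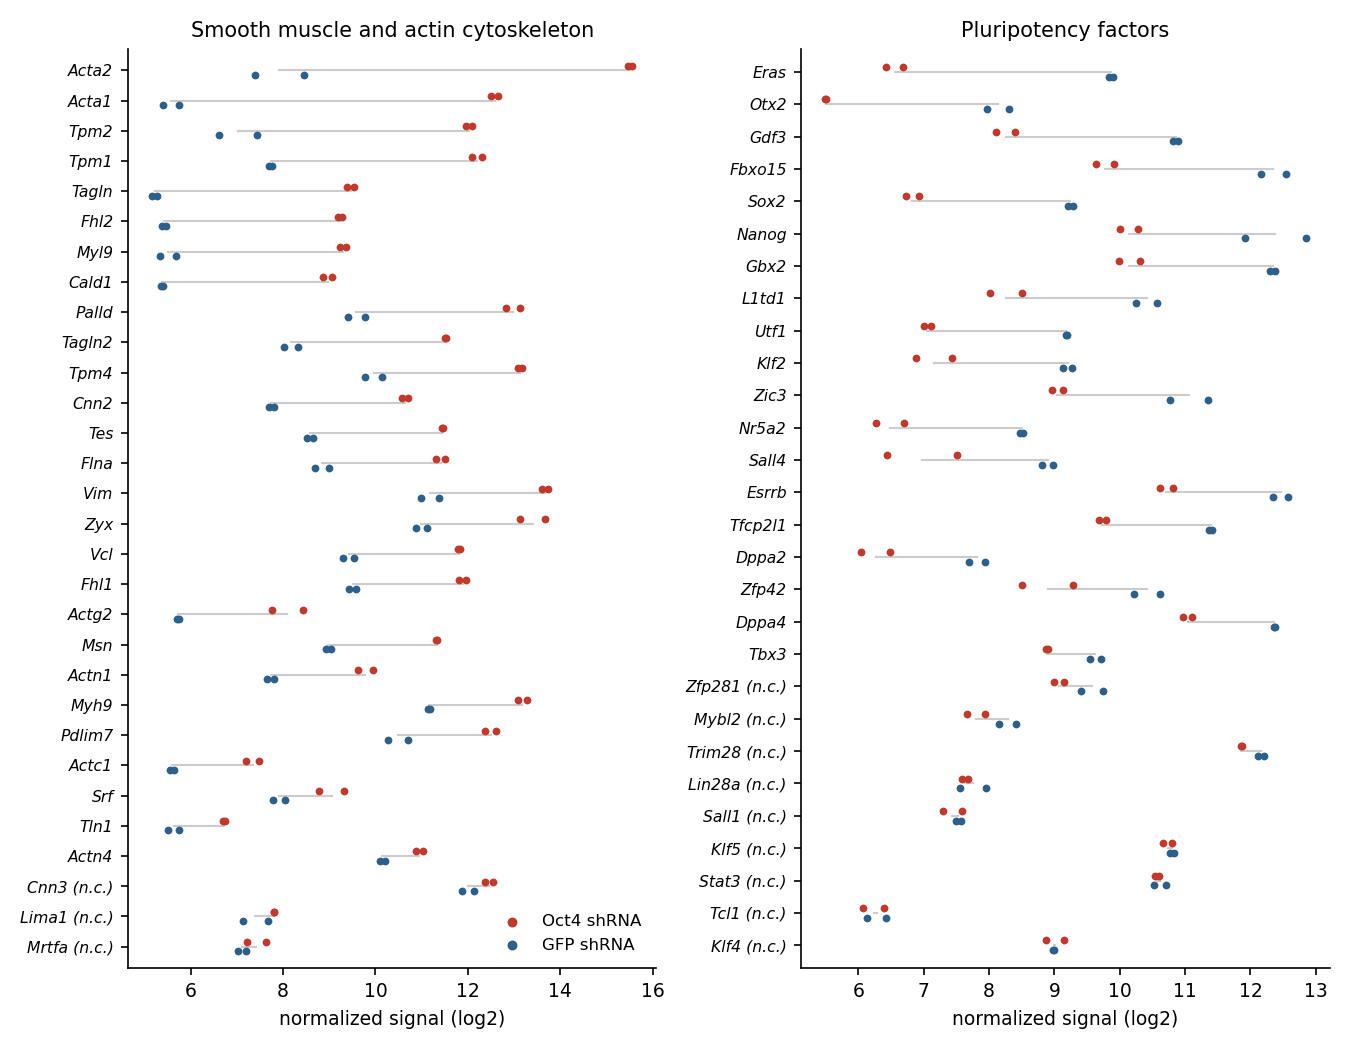
Normalized log2 signal (horizontal axis) of the tested members of the smooth muscle and actin list but 1 (left panel) and of all tested members of the pluripotency list (right panel), with both Oct4 shRNA arrays in red and both GFP shRNA arrays in blue; n.c. marks members that were not called. Acta2 and Acta1 have the widest gaps on the left, and Klf4, Klf5 and Stat3 show none on the right.

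Signalling genes of the ES cell niche moved in both directions. Of 23 LIF, BMP, FGF and TGF-beta pathway genes tested, of 41 listed, 12 rose and 6 fell (median 0.83, or -0.05 for the 13 detected on all 4 arrays, of which 4 rose and 5 fell). Among ligands, Bmp4, which supports ES self-renewal with LIF, rose (0.67 ± 0.15), as did Tgfb2 (at least 4.59-fold), and Nodal, which maintains the epiblast, fell (-1.34 ± 0.15). Id1 (1.21 ± 0.15) and Id3 (1.38 ± 0.16), the inhibitors of differentiation induced by BMP, rose with Bmp4. In the FGF pathway, Dusp4, a phosphatase of ERK, had 10.69 and 10.59 in Oct4 shRNA cells, against 6.80 and 6.72 in GFP shRNA cells (3.88 ± 0.14), while the ERK-induced ETS factors Etv4 (-0.78 ± 0.16) and Etv5 (-1.27 ± 0.17) fell. Fst, the activin inhibitor follistatin, was at least 2.66-fold higher. On the LIF side, the feedback inhibitor Socs3 fell (-0.92 ± 0.14), and Socs2, another of the family, fell to 7.26 and 8.03 in Oct4 shRNA cells, against 10.77 and 10.86 in GFP shRNA cells (-3.17 ± 0.27). Without Oct4 shRNA replicate 1 the list had 7 rises and 2 falls, without replicate 2 it had 3 falls, and under scaling to a common median it had 5 rises.

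Trophectoderm markers rose, but by amounts that ranged widely from the keratins to the lineage's transcription factors. Of 19 tested, of 38 listed, 15 rose and 1 fell (median 1.06, or 0.80 with the genes not above background in GFP shRNA cells at their bound), and of the 9 detected on all 4 arrays 6 rose and 1 fell (median 0.54). Krt7, a keratin of trophoblast and other simple epithelia, had 12.73 and 12.53 in Oct4 shRNA cells, against 6.84 and 5.98 in GFP shRNA cells, where 1 of the 2 arrays was above background (6.22 ± 0.30). Cdx2, the homeodomain factor that Oct4 antagonises in the early embryo, had 8.14 and 8.26 in Oct4 shRNA cells, against 7.03 and 7.52 in GFP shRNA cells (0.93 ± 0.20, limma adjusted p = 0.0174). Gata3, which acts beside Cdx2 in trophectoderm, was at least 3.83-fold higher, and Gata2 at least 1.84-fold. The X-linked homeobox genes Rhox9 (at least 9.30-fold), Rhox6 (at least 4.47-fold) and Rhox5 (1.03 ± 0.15) rose together. Tead4, the factor upstream of Cdx2, was at 0.54 ± 0.17 with an adjusted p just under the threshold (limma adjusted p = 0.0496). The member that fell was Tfap2c (-1.51 ± 0.15), an AP-2 factor expressed in trophoblast and also in ES cells, whose dim second probe was at -0.51. Eomes, Elf5, Hand1, Ascl2, Tfap2a and the placental genes Tpbpa, Plac1 and Gcm1 did not pass the filter. Under scaling to a common median 9 members rose.

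Primitive endoderm genes rose with a higher median. Of 19 tested, of 32 listed, 13 rose and 1 fell (median 1.53, or 1.19 with bounds), and of the 12 detected on all 4 arrays 8 rose and 1 fell (median 1.36). Regulators of the lineage were among the rises. Gata4 had 8.62 and 8.67 in Oct4 shRNA cells, against 6.88 and 6.89 in GFP shRNA cells (1.76 ± 0.14), Gata6 was at 1.19 ± 0.14 and Sox17 at 1.62 ± 0.18. The groups did not overlap for any of these 3 factors, as for 38% of all genes tested with the Oct4 shRNA arrays higher. The endocytic adaptor Dab2 (1.55 ± 0.18) and its receptor partner Lrp2, or megalin (2.36 ± 0.25), the receptor Pdgfra (1.55 ± 0.21), Foxq1 (2.15 ± 0.18) and the small GTPase gene Rhou (2.68 ± 0.20) rose. Pdgfra and Foxq1 were each above background on 1 of the 2 GFP shRNA arrays. Apoe, the lipid carrier made by yolk sac endoderm, fell (-1.71 ± 0.15), and Hnf4a (-0.13 ± 0.31), Apob (-0.47 ± 0.23) and Amn (-0.49 ± 0.26) were not called. Sox7, Foxa2, Afp and Ttr did not pass the filter.

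Other lineages left little signal on these arrays. Of 26 mesoderm and primitive streak genes 2 passed the filter, Tbx6 (-0.22 ± 0.23, not called) and Msgn1, which was above background in Oct4 shRNA cells only and whose bound of at least 1.004-fold leaves almost no rise. The call of Msgn1 ended without any 1 of the 4 arrays. The median of this list, 0.13, turned negative under scaling to a common median. Of 31 primed epiblast, ectoderm and neural genes 12 were tested, with 4 higher and 5 lower (median -0.10, which turned positive under cyclic loess). Gap43, a growth cone protein (2.30 ± 0.24), and the adhesion genes Ncam1 (1.07 ± 0.15) and Cdh2 (at least 1.74-fold) rose, and Stmn2 (at least 3.92-fold) and Sall3 (-1.13 ± 0.14) fell, along with Otx2 and the epiblast DNA methyltransferase Dnmt3b (-0.81 ± 0.14). Gap43 was above background on 1 of the 2 GFP shRNA arrays. Under scaling to a common median 1 gene of the list rose, and Ncam1 lost its call, and without either Oct4 shRNA array 3 fell. Of 19 endothelial and blood markers 4 were tested: Egfl7 (-0.99 ± 0.15), Pecam1 (at least 1.38-fold) and Cd34 (-0.60 ± 0.17) were lower and Cd68 was not called. All 3 of these calls ended without Oct4 shRNA replicate 1, and that of Cd34 also without Oct4 shRNA replicate 2 or GFP shRNA replicate 2. Cd34 was above background on 1 of the 2 Oct4 shRNA arrays.

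**Figure D4:**
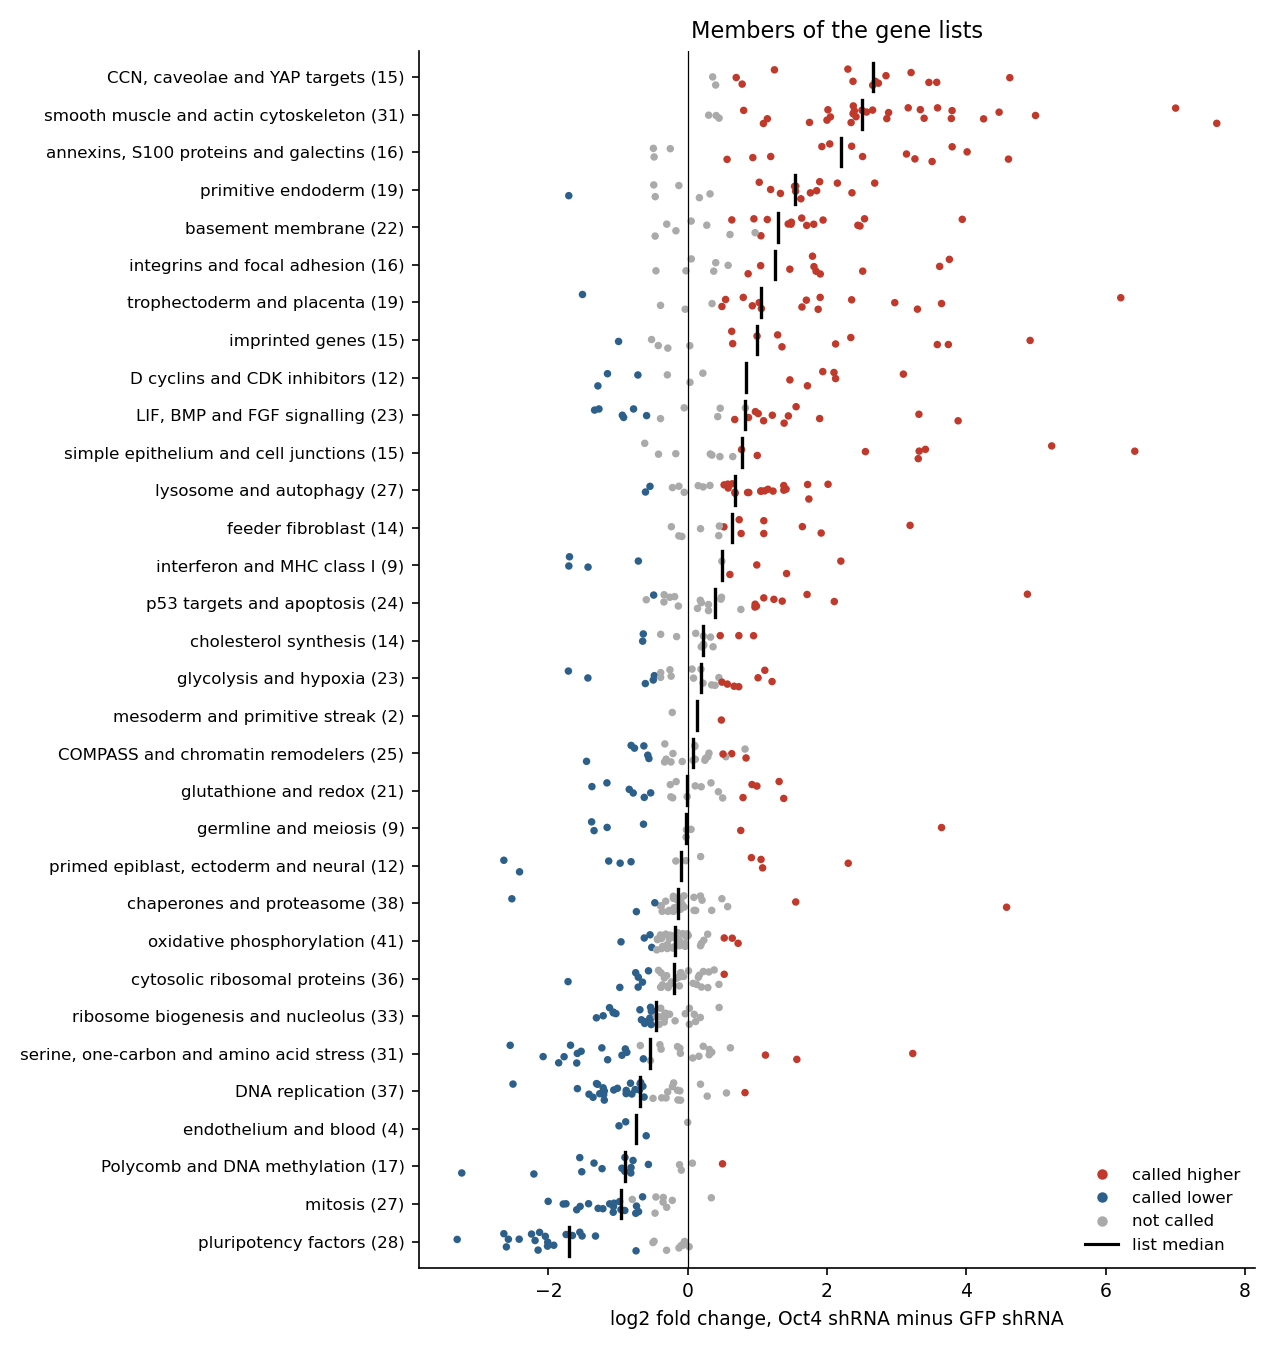
Log2 fold change of Oct4 shRNA over GFP shRNA (horizontal axis) of every tested member of 32 gene lists, ordered by list median, with the number tested in brackets; points are genes, red where called higher, blue where called lower and grey where not called, and black bars are list medians. The CCN and actin lists have medians of 2.66 and 2.50 (1.64 and 2.44 with genes not above background in a group at their bound), and the pluripotency list one of -1.70.

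The list with the largest share of rises was that of contractile and actin cytoskeleton genes, of which 28 of 31 tested, of 37 listed, rose and 0 fell (median 2.50). Of the 22 detected on all 4 arrays 19 rose, with a median of 2.40. Of the muscle actins besides Acta2, Acta1, the skeletal actin gene, had 12.65 and 12.51 in Oct4 shRNA cells and was not above background in GFP shRNA cells (5.75 and 5.40), which makes it at least 66.4-fold higher. Actc1, the cardiac actin gene (at least 1.77-fold), and Actg2, the enteric one (at least 2.97-fold), were higher too. The tropomyosins, which stabilise actin filaments, rose strongly: Tpm1 had 12.32 and 12.10 in Oct4 shRNA cells, against 7.71 and 7.77 in GFP shRNA cells (4.47 ± 0.15), Tpm2 was at 4.99 ± 0.29 and Tpm4 at 3.16 ± 0.18. Tpm2 was above background on 1 of the 2 GFP shRNA arrays. Tagln, or SM22, an early smooth muscle marker, was at least 7.69-fold higher, the myosin light chain gene Myl9 at least 6.83-fold and the caldesmon gene Cald1 at least 5.43-fold. The crosslinkers Flna (2.57 ± 0.17) and Flnc (3.78 ± 0.17), the adhesion plaque genes Vcl (2.39 ± 0.15), Zyx (2.42 ± 0.22) and Lpp (3.54 ± 0.29), and the intermediate filament gene Vim (2.50 ± 0.18) rose as well. Among the members not called were Cnn3, a calponin (0.45 ± 0.17), and Mrtfa, the actin-regulated coactivator of serum response factor (0.30 ± 0.19). Markers of mature smooth muscle, Cnn1, Mylk, Lmod1 and Des, did not pass the filter.

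Serum response factor (SRF), which drives many of these genes through a motif called the CArG box, was itself higher (Srf, 1.14 ± 0.23, limma adjusted p = 0.0116). The CArG box consensus, a pair of C, a run of A or T and a pair of G, was searched on both strands from 250 bases before to 50 bases after each gene's start in RefSeq promoters of build GRCm38.p6. It occurred in 9 of the 28 tested list members with a promoter (32.1%), of which 8 were called higher. Over all promoters it occurred in 1.63%, and in 1.8% of the tested genes with a promoter and 2.53% of those called higher. The list names known SRF targets, so this share describes the list, and a match is a description of the letters, not a site shown to be used. No match lay in these windows for Acta2, Tpm1 or Tpm2, and Tagln and Actg2 were not looked up further. The promoters of the 4 members of largest fold change among the matched and called genes are printed, from Acta1 on the minus strand of chr8:123894726-123895025 (CArG box starting 73 bases before the start), Fhl2 on the minus strand of chr1:43196712-43197011 (96 bases before), Myl9 on the plus strand of chr2:156775214-156775513 (161 bases before) and Cnn2 on the plus strand of chr10:79988350-79988649 (56 bases before). Fhl2 has a second promoter with a match 31 bases before its start. Capitals mark the CArG box in each sequence.
Acta1: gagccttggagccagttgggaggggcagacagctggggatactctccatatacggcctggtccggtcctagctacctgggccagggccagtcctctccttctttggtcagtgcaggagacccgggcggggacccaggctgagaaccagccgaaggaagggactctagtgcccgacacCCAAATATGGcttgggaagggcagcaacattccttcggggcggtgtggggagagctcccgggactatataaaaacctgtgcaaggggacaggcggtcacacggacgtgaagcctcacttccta
Fhl2: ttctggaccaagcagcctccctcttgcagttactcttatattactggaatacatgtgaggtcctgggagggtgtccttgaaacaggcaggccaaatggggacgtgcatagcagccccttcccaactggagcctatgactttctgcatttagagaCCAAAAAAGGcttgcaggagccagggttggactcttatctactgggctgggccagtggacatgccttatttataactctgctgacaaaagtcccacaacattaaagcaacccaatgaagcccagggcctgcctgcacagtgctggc
Myl9: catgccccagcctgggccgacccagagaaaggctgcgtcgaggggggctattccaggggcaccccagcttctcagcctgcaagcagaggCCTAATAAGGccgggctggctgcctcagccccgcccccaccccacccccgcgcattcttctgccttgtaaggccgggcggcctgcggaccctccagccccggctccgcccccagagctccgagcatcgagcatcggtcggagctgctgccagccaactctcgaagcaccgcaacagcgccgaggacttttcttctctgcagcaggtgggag
Cnn2: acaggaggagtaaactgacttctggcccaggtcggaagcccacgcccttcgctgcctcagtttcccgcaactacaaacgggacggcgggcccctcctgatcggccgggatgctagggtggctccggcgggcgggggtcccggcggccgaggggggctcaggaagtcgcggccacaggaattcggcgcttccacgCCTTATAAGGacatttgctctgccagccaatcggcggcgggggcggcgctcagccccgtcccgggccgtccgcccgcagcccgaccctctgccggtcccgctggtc
Of these genes, Fhl2, a LIM-domain partner of SRF, had 9.27 and 9.18 in Oct4 shRNA cells, against 5.47 and 5.39 in GFP shRNA cells. Myl9 had 9.36 and 9.23 in Oct4 shRNA cells, against 5.68 and 5.35 in GFP shRNA cells. Both were above background in Oct4 shRNA cells only, which makes Fhl2 at least 6.49-fold higher. Cnn2, a calponin of non-muscle cells, had 10.70 and 10.57 in Oct4 shRNA cells, against 7.80 and 7.69 in GFP shRNA cells, and was detected on all 4 arrays (2.88 ± 0.14).

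Genes that respond to the coactivators YAP and TAZ rose beside the actin genes. Of 15 CCN, caveolae and YAP target genes tested, of 22 listed, 13 rose and 0 fell (median 2.66, or 1.64 with bounds), and 6 of the 8 detected on all 4 arrays rose (median 1.58). Ccn2, or CTGF, had 11.06 and 11.09 in Oct4 shRNA cells, against 8.76 and 8.003 in GFP shRNA cells (2.69 ± 0.27). Ccn1, or CYR61, was at least 5.53-fold higher and the receptor tyrosine kinase gene Axl at least 12.98-fold by their brightest probes. A second Ccn1 probe was above background on 1 GFP shRNA array and gave 1.88, and a second Axl probe was above background on both and gave -0.20, so the probes of Axl disagree. F3, the coagulation initiator tissue factor, was at 3.46 ± 0.23, Edn1, the peptide endothelin 1, at 2.85 ± 0.19, the caveolar coat gene Cavin1 at 2.37 ± 0.16, and Cav1 at least 2.003-fold higher. The coactivator genes differed, with Wwtr1, encoding TAZ, higher (0.78 ± 0.14) and Yap1 (0.40 ± 0.17) and its DNA-binding partner Tead1 (0.36 ± 0.14) not called.

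Basement membrane genes and their receptors rose in Oct4 shRNA cells. Of 22 matrix genes tested, of 30 listed, 15 rose and 0 fell (median 1.29), with 10 rises among the 16 detected on all 4 arrays, and 1 fall without GFP shRNA replicate 1. The type IV collagen genes Col4a1, at 13.35 and 13.13 in Oct4 shRNA cells, against 10.69 and 10.71 in GFP shRNA cells (2.54 ± 0.15), and Col4a2 (1.94 ± 0.17) rose with their chaperone Serpinh1, or HSP47 (2.47 ± 0.18), and with the collagen hydroxylases P4ha1 (1.14 ± 0.15), P4ha2 (1.64 ± 0.14), Plod2 (1.48 ± 0.15) and Plod3 (1.44 ± 0.16). The laminin chain gene Lamc1 was at 1.49 ± 0.16. The heparan sulfate proteoglycan genes did not follow, with Hspg2, or perlecan, at 0.61 ± 0.20, Agrn at -0.17 ± 0.18 and Col18a1 at -0.47 ± 0.16, none of them called. Of 16 integrin and focal adhesion genes tested, of 24 listed, 10 rose and 0 fell (median 1.26, with 7 rises among the 10 detected on all 4 arrays). Itgb1, the common beta chain, was at 2.51 ± 0.14 by its main probe and 0.47 by its second, the laminin receptor chains Itga3 (1.79 ± 0.19) and Itga6 (0.87 ± 0.15) rose, the parvin gene Parva was at least 6.76-fold higher, and the urokinase receptor Plaur had 10.72 and 10.69 in Oct4 shRNA cells, against 7.34 and 6.84 in GFP shRNA cells (3.62 ± 0.20).

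Annexins, S100 proteins and galectins formed another rising group, with 13 of 16 genes tested, of 23 listed, higher and 0 lower (median 2.20, and 9 of the 11 detected on all 4 arrays), with 2 lower without GFP shRNA replicate 1. Lgals1, or galectin 1, had 13.78 and 13.49 in Oct4 shRNA cells, against 9.03 and 9.03 in GFP shRNA cells (4.60 ± 0.16). Anxa3 had 12.87 and 12.75 in Oct4 shRNA cells, against 9.19 and 8.84 in GFP shRNA cells (3.80 ± 0.18), and Anxa2 was at 3.51 ± 0.14 with its partner S100a10 at 2.04 ± 0.14. The giant scaffold gene Ahnak, which binds that pair, was at 4.01 ± 0.17, with 1.56 from a dimmer probe. Anxa4 (-0.48 ± 0.34), Anxa7 (-0.25 ± 0.18) and S100a16 (-0.49 ± 0.34) were not called. Among junction and simple epithelium genes 8 of 15 tested, of 32 listed, rose and 0 fell (median 0.77, and 4 of the 10 detected on all 4 arrays), with 1 lower without either GFP shRNA array and 2 under scaling to a common median. Besides Krt8 and Krt18 these included Cldn4, a tight junction claudin (3.41 ± 0.17), the desmosomal genes Dsp (at least 4.39-fold) and Pkp2 (3.31 ± 0.25), and Cdh1, or E-cadherin, which was slightly higher (0.77 ± 0.17). Pkp2 was above background on 1 of the 2 GFP shRNA arrays. Desmoglein 2 (Dsg2, -0.42 ± 0.15), Jup (0.46 ± 0.17), Tjp1 (0.65 ± 0.32) and Ezr (-0.62 ± 0.19) were not called.

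Because the cultures contained fibroblast feeders, fibroblast genes were examined as a whole list. Of 37 markers with a probe, 15 and 14 were above background on the Oct4 shRNA arrays, against 8 and 6 on the GFP shRNA arrays, and 21 on no array. The 14 that passed the filter summed to 4651 and 4084 on the linear normalized scale in Oct4 shRNA cells, against 1908 and 1880 in GFP shRNA cells. Of these 14, 8 rose (57.1%, against 24.3% of all genes) and 0 fell (median 0.63, or 0.25 with bounds). However, 5 of the 14 were not above background in GFP shRNA cells and passed the filter only through the Oct4 shRNA arrays. Of the 5 detected on all 4 arrays, 3 rose (median 0.52). The rises included Timp2, an inhibitor of matrix proteases (at least 5.52-fold), Fstl1 (1.92 ± 0.15), fibronectin (Fn1, 0.74 ± 0.16) and Col5a2 (at least 1.24-fold). The defining fibroblast collagens Col1a1, Col1a2 and Col3a1 and the markers Thy1, Lum, Dcn, Postn and Lox were not above background on any of the 4 arrays. The count of rises was 4 without Oct4 shRNA replicate 1, 5 without replicate 2 and 3 under scaling to a common median. The part of feeder cells in the rises of actin, matrix and fibroblast genes was not tested beyond these values.

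Polycomb and DNA methylation genes fell as a group. Of 17 tested, of 26 listed and all detected on all 4 arrays, 13 fell and 1 rose (median -0.90). Ezh2, the methyltransferase of Polycomb repressive complex 2, had 6.46 and 6.74 in Oct4 shRNA cells, against 9.83 and 9.86 in GFP shRNA cells (-3.24 ± 0.16, limma adjusted p = 4.58e-04), and its partner genes Eed (-0.78 ± 0.24), Mtf2 (-1.23 ± 0.17) and Rbbp4 (-0.90 ± 0.16) fell too. The 5-methylcytosine oxidases Tet1, at 8.42 and 8.66 in Oct4 shRNA cells, against 10.71 and 10.78 in GFP shRNA cells (-2.21 ± 0.15), and Tet2 (-1.55 ± 0.17) fell, as did the methyltransferase genes Dnmt1 (-0.82 ± 0.17) and Dnmt3b, the cofactor gene Dnmt3l (-0.90 ± 0.15) and the maintenance factor gene Uhrf1 (-0.94 ± 0.17). The exception was Cbx7 (0.50 ± 0.14), a Polycomb chromodomain gene, whose sign turned under scaling to a common median and whose call ended without Oct4 shRNA replicate 1, Oct4 shRNA replicate 2 or GFP shRNA replicate 2. Without Oct4 shRNA replicate 1, 6 of the list fell. Of 25 COMPASS and remodeler genes, of 28 listed, 3 rose and 6 fell (median 0.08, negative under both median scalings). These are 12% and 24%, against 24.3% and 18.1% of all genes. The core COMPASS genes Dpy30 (-1.45 ± 0.17), Wdr5 (-0.81 ± 0.15) and Ash2l (-0.76 ± 0.22) fell and the methyltransferase gene Setd1a (0.63 ± 0.16) and the remodeler ATPase gene Smarca4 (0.84 ± 0.20) rose. Of these 5 the call of Dpy30 alone held without each array, and the number of falls was 1 and 2 without Oct4 shRNA replicates 1 and 2 and 10 under scaling to a common median.

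Most replication and mitosis genes tested fell, and several CDK inhibitor genes rose. Of 37 DNA replication genes tested, of 41 listed, 23 fell and 1 rose (median -0.69), and of 27 mitosis genes, of 34 listed, 19 fell and 0 rose (median -0.96). Of those detected on all 4 arrays, 21 of 31 replication genes and 17 of 24 mitosis genes fell. The origin licensing and firing genes Cdc45 (at least 3.34-fold lower), Gins1 (-1.58 ± 0.22) and Cdt1 (-1.36 ± 0.16), the thymidine enzyme genes Tk1 (-1.42 ± 0.15) and Tyms (-1.29 ± 0.15) and the helicase gene Mcm5 (-1.06 ± 0.14) fell, and Rrm1, a ribonucleotide reductase chain, was higher (0.82 ± 0.19), a call that ended without Oct4 shRNA replicate 2 and under scaling to a common median. In mitosis, the centromeric histone gene Cenpa had 11.32 and 11.50 in Oct4 shRNA cells, against 13.16 and 13.15 in GFP shRNA cells (-1.75 ± 0.15), the kinase gene Aurka was at -1.79 ± 0.17, the cyclin gene Ccnb1 at -1.42 ± 0.22, and Cenpf was at least 1.88-fold lower. Without Oct4 shRNA replicate 1 or replicate 2, 13 replication genes fell in each case, and 10 mitosis genes fell without replicate 1.

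Of 12 D cyclins, CDK inhibitors and Rb family genes tested, of 15 listed, 6 rose and 3 fell (median 0.84, or 0.22 for the 9 detected on all 4 arrays, of which 4 rose and 2 fell). Cdkn1a, or p21, had 12.26 and 12.10 in Oct4 shRNA cells, against 10.12 and 10.37 in GFP shRNA cells (1.94 ± 0.16), Cdkn1c, or p57, had 10.77 and 10.08 in Oct4 shRNA cells, against 8.28 and 8.32 in GFP shRNA cells (2.12 ± 0.25), and Cdkn2b, or p15, was at 3.10 ± 0.20 and Cdkn2a at 1.72 ± 0.16. Cdkn2b was above background on 1 of the 2 GFP shRNA arrays. The D cyclins moved in both directions, with Ccnd2 higher (2.10 ± 0.15) and Ccnd1 (-1.15 ± 0.14) and Ccnd3 (at least 2.35-fold) lower. Every kept probe of Ccnd1 (4 of them) was negative and both of Ccnd2 were positive. Of 24 p53 target and apoptosis genes tested, of 33 listed, 9 rose and 1 fell (median 0.39, which turned negative under scaling to a common median, where 3 rose). The shares were 37.5% and 4.17%, against 24.3% and 18.1% of all genes. However, 4 of the 24 were not above background in GFP shRNA cells. Of the 18 detected on all 4 arrays 5 rose and 1 fell (median 0.24), where 17.7% and 21% of all such genes did. Gadd45g, a stress and differentiation gene, was at least 18.5-fold higher, the polo-like kinase gene Plk2 was at 2.10 ± 0.16, the p53 ligase gene Mdm2 at 1.36 ± 0.14 and the death receptor gene Fas at least 1.56-fold higher. The gene that fell was Trp53 itself (-0.49 ± 0.14), a call that ended without any 1 of the 4 arrays, and Bax (-0.34 ± 0.14) and Pmaip1 (0.76 ± 0.36) were not called.

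Ribosome biogenesis and amino acid genes had more falls than rises, and lysosomal genes more rises than falls. Of 33 ribosome biogenesis genes tested, of 40 listed and all detected throughout, 16 fell and 0 rose (median -0.45), among them Ncl, or nucleolin (-1.31 ± 0.18), and the box C/D snoRNP genes Nop56 (-1.21 ± 0.15) and Nop58 (-1.12 ± 0.24, not called without Oct4 shRNA replicate 1). That count was 4 without Oct4 shRNA replicate 1, 6 without replicate 2, 10 under cyclic loess and 25 under scaling to a common median. Of 36 ribosomal protein genes tested, of 61 listed, 7 fell, or 19.4%, near the 18.1% of all genes, and 1, Rpl5, rose (median -0.19), with the sign of Rpl5 turned under scaling to a common median. The number of falls rested on the setting, with 1 and 2 falls without Oct4 shRNA replicates 1 and 2 and 19 under scaling to a common median. Of 31 serine, one-carbon and amino acid stress genes tested, of 39 listed, 14 fell and 3 rose (median -0.54), and 9 fell without Oct4 shRNA replicate 1. The transporter gene Slc7a3 had 8.01 and 8.52 in Oct4 shRNA cells, against 10.68 and 10.94 in GFP shRNA cells (-2.55 ± 0.22), Tdh, the threonine dehydrogenase on which mouse ES cells depend, was at -1.85 ± 0.27, its downstream partner Gcat at -1.53 ± 0.19, and Chac1, which degrades glutathione, at -2.08 ± 0.14. The stress factors Atf3 (at least 4.76-fold) and Ddit3, or CHOP (1.57 ± 0.14), and the chaperone gene Hspa5, or BiP (1.12 ± 0.28), rose in the same cells, and Atf4 (0.31 ± 0.18) and Asns (-0.11 ± 0.14) were not called. Of 27 lysosome and autophagy genes tested, of 32 listed, 19 rose and 2 fell (median 0.68), including the tetraspanin gene Cd63 (2.01 ± 0.14) and the protease genes Lgmn (1.74 ± 0.14) and Ctsd (1.72 ± 0.14). The genes that fell, Ctsa (-0.54 ± 0.16) and Glb1 (-0.61 ± 0.14), lost their calls without either Oct4 shRNA array, and the average over the probes of Glb1 was positive. Rises numbered 11 and 12 without Oct4 shRNA replicates 1 and 2 and 3 under scaling to a common median.

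Imprinted genes, expressed from one parental copy, held some of the largest rises. Of 15 tested, of 25 listed, 10 rose and 1 fell (median 1.00, or 0.65 with bounds), and of the 9 detected on all 4 arrays 5 rose and 1 fell (median 0.63); under scaling to a common median 5 rose. Igf2, the fetal growth factor, had 13.72 and 13.42 in Oct4 shRNA cells, against 8.55 and 8.76 in GFP shRNA cells (4.91 ± 0.17), and H19, the non-coding RNA gene beside it, was at least 8.54-fold higher. Dlk1 was at least 8.44-fold higher, Peg3 at least 3.91-fold and Ndn at 1.29 ± 0.15, and Snrpn fell (-0.99 ± 0.15), although its call ended without Oct4 shRNA replicate 1 and the list had 2 falls without either GFP shRNA array. Igf2r (-0.52 ± 0.16), Mest (-0.42 ± 0.24) and Impact (0.03 ± 0.23) were not called. Of these, H19 is expressed from the maternal copy and Igf2, Dlk1, Peg3 and Ndn from the paternal one, so genes of both kinds were among the rises. In the interferon and MHC class I list 4 of 9 tested, of 31 listed, rose and 4 fell (median 0.49, or -1.07 for the 6 detected on all 4 arrays), with 2 rises without either Oct4 shRNA array and 1 under scaling to a common median. B2m, the light chain of MHC class I (2.20 ± 0.14), and the heavy chain gene H2-D1 (1.42 ± 0.20, not called under scaling to a common median) rose, and the membrane proteins of the Ifitm family fell, with Ifitm1 at -1.70 ± 0.14, Ifitm2 at -1.71 ± 0.18 and Ifitm3 at -1.43 ± 0.14. The other probes of Ifitm1 were at -2.28 and -0.02.

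The 15 genes with the largest rises among those detected on all 4 arrays lay between 3.54 for Lpp and 7.59 for Acta2 on the log2 scale. Those not yet described were Cryab, the small heat shock protein alpha B crystallin, with 12.99 and 12.76 in Oct4 shRNA cells, against 8.27 and 8.33 in GFP shRNA cells (4.58 ± 0.15), Dusp5, a nuclear ERK phosphatase (3.55 ± 0.17), and Nuak1, an AMPK-related kinase (3.74 ± 0.19). Genes above background in Oct4 shRNA cells only included, after Acta1 and Gadd45g, Nts, encoding the peptide neurotensin (at least 20.3-fold), the protease inhibitor gene Timp3 (at least 17.2-fold), the myelin protein gene Pmp22 (at least 15.96-fold) and the locus LOC640265 (at least 13.8-fold).

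The 15 largest falls among genes detected on all 4 arrays lay between -2.37 for Snrnp70, a U1 splicing factor whose second probe was at -0.74, and -3.59 for LOC630607. They included, besides Ezh2, Socs2, Gdf3, Fbxo15, Slc7a3 and Sox2, the Riken locus E430003D02Rik, at 7.73 and 8.08 in Oct4 shRNA cells, against 11.21 and 11.11 in GFP shRNA cells (-3.25 ± 0.17), the melanosome transport gene Mreg (-2.88 ± 0.17), the actin nucleator gene Cobl (-2.70 ± 0.19), the branched-chain aminotransferase gene Bcat1 (-2.63 ± 0.16) and Ccdc3 (-2.40 ± 0.17). LOC630607, LOC545592 (-3.01 ± 0.28) and LOC633016 (-2.42 ± 0.17) are named in the deposited table as loci similar to an X-linked translation initiation factor, an hnRNP and a chromobox gene, so their probes may read near-identical copies and their identity is uncertain. The same holds for LOC627881 (at least 11.04-fold lower), which, with Tera-pending (at least 9.62-fold), the proteasome gene Psmd2 (at least 5.49-fold), the mitochondrial protease gene Yme1l1 (at least 5.14-fold), Bdh2 (at least 5.001-fold) and 2410087M07Rik (at least 4.95-fold), was above background in GFP shRNA cells only.

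Fold sizes depend on the scale. In the authors' deposited table the log2 fold change of Acta2 was 6.64, that of Krt8 4.32, of Krt18 4.23, of Nid1 2.30 and of Pou5f1 -1.70, each of the same sign and smaller in size. List medians kept their sign under every scaling tried for the pluripotency, actin, CCN, annexin, basement membrane, integrin, trophectoderm, primitive endoderm, imprinted, lysosome, Polycomb, replication and mitosis lists.

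**Figure D5:**
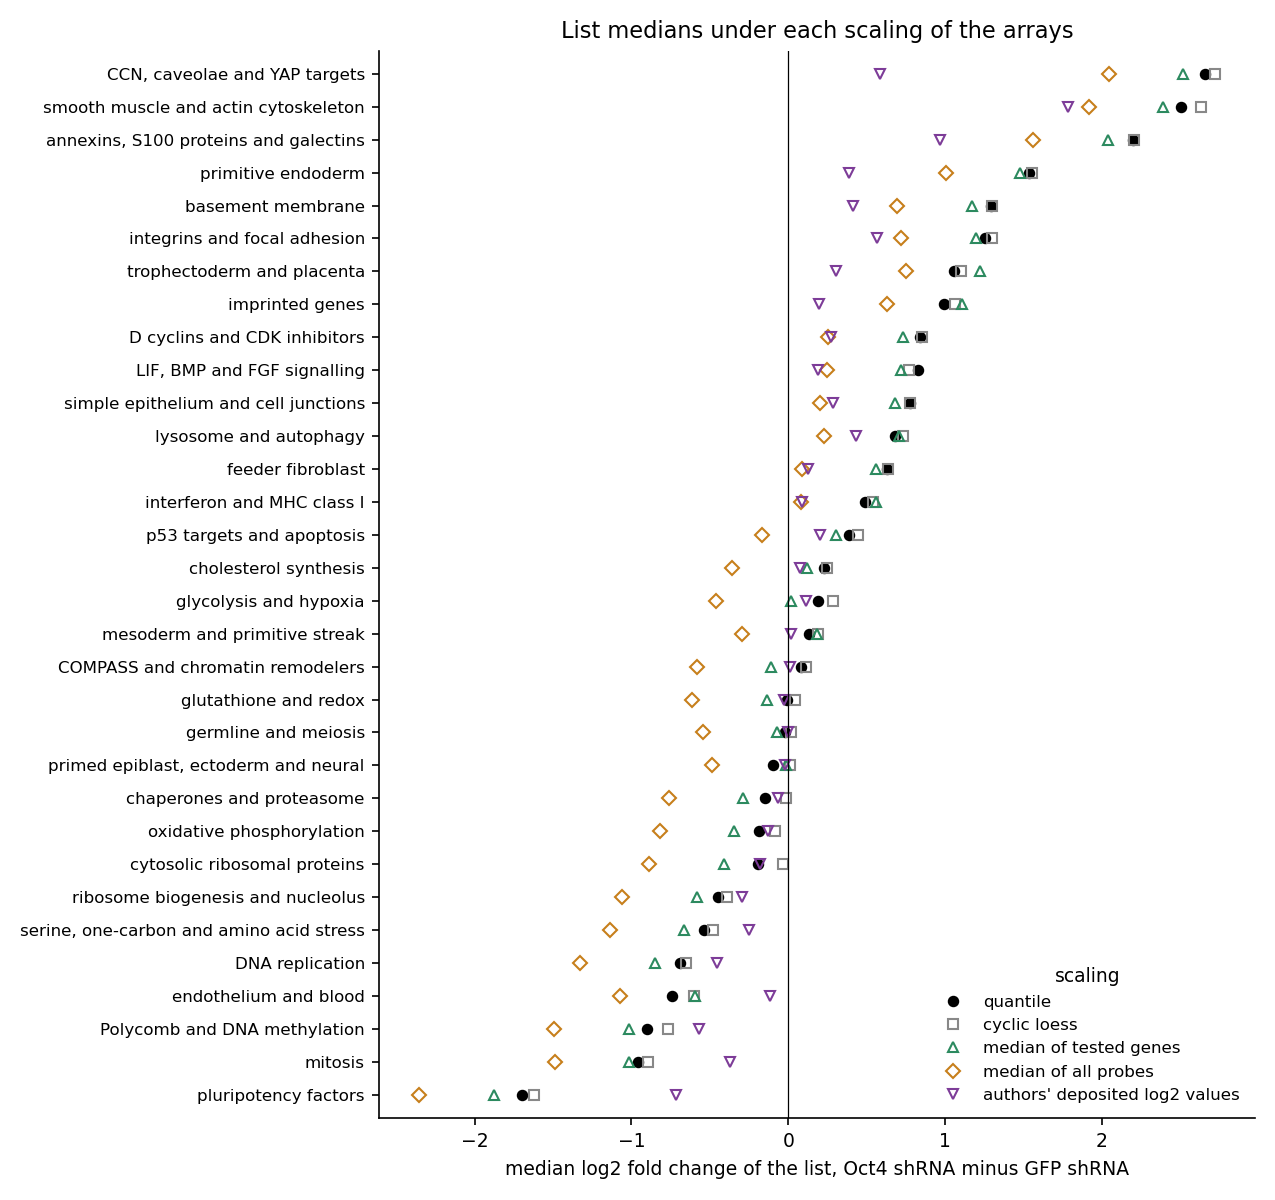
Median log2 fold change of Oct4 shRNA over GFP shRNA (horizontal axis) of each of 32 gene lists under 5 scalings of the arrays, given by the marker shapes. The pluripotency list lies between -2.35 and -0.71 and the actin list between 1.79 and 2.63, while lists near 0, such as COMPASS, change sign with the scaling.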

How the data were processed

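RNA of 4 samples was measured on 1-colour Illumina beadchips. The authors deposited a background-subtracted probe intensity, not normalized between arrays, and a detection score, a fraction from 0 to 1 per probe, per the file headers. They also deposited normalized log2 values, and fold changes with p-values and adjusted p-values computed from them; the submitters' processing notes name limma without a version, and the normalization method is not given in the sources used here. Here, intensities were background-corrected by normexp with an offset of 16, quantile normalized and put on a log2 scale with limma 3.58.1 in R 4.3.3. A probe was kept where its detection score exceeded 0.95 on at least 2 arrays, which left 11324 of 46643 probes. Each of the 9276 genes was represented by its brightest kept probe, although for 62 of 1649 multi-probe genes one probe was called higher and another lower. Probe names were updated through RefSeq accessions for 25596 probes and synonyms for 4100, and kept from the deposited table for 5216 with a current and 11721 with another symbol. The groups were compared with lmFit and eBayes on the 4 arrays alone, with no covariate, 2 residual degrees of freedom and Benjamini-Hochberg adjustment over all genes at 0.05. With 2 arrays per group the precision is limited. On simulated data of 2 against 2 arrays and 9276 genes, 100 genes changed by 1 and 100 by 2 on the log2 scale. Of these, 30% and 80% were recovered, with 4 false calls. The 42.4% of genes called in the data is a far larger share than was changed there, and the number of arrays was not varied. These recoveries therefore do not carry over to the data.

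The members and the 32 gene lists (1028 symbols, 666 tested) were chosen with earlier results of these data known. Genes named by rule were Pou5f1 and the markers Krt8, Krt18, Acta2 and Nid1, the 15 largest rises and 15 largest falls among called genes detected on all 4 arrays without overlap of the groups, the 6 genes of largest bound above background in 1 group only in each direction, and up to 3 called members of each list in its leading direction and up to 2 in the other. Other list members were named for their role after their values were seen, and 1 member of the actin list is not reported here by name. Alternatives changed the normalization, offset, filter, probe choice, variance model, replicate block and arrays included.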

Additional observations from a re-analysis of the deposited data

How the results depend on the processing

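Scaling to a common median over all probes gave 581 genes higher and 2762 lower, and 472 and 2089 with at least 2-fold, against 2250, 1680, 1131 and 682 in the report. That median is the level of undetected probes. Only genes detected on all 4 arrays, 6509 with the probe chosen after that filter, gave 1279 higher, and 491 with at least 2-fold. The cause of these lower counts was not tested. The deposited log2 values gave 202 genes higher and 94 lower by at least 2-fold, of which the cause was not tested. An offset of 50, which shrinks folds of dim genes, gave 741 higher by at least 2-fold. Leaving out 1 array gave 1022 to 2531 genes higher and 610 to 2054 lower, and 997 to 1170 and 592 to 783 with at least 2-fold. The Pou5f1 log2 fold change stayed past the threshold throughout, between -2.93 (scaling to a common median) and -1.70 (deposited values). Signs turned for Cbx7 (-0.20), Cox4i1 (-0.082), Cyp51 (-0.12) and Rpl5 (-0.12) under scaling to a common median, and for Glb1 (0.11) and Sqle (-0.22) when kept probes were averaged. The kept probes of these genes differed in sign. Those of Sqle were at 0.73 and -1.18, and those of Glb1 at 0.99, -0.40, 0.46 and -0.61. Without Oct4 shRNA replicate 1, 33 named results lost their call, and 26 without replicate 2. Probes dimmer than the detection limit bound the fold of genes seen in 1 group only.

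The replicate numbers do not pair the samples by any label, and deviations of same-numbered arrays correlated at -0.36. With the replicate block 1967 genes were higher and 1338 lower, 1133 and 685 of them by at least 2-fold, and 13 named results lost their call. Crossed numbers as a block, chosen after seeing the data, gave 2572 higher and 2147 lower. Scaling to the median of tested genes, also chosen after seeing the data, gave 1999 and 1911.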

Other observations

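Of 23 glycolysis and hypoxia genes tested, of 32 listed, 7 were higher and 5 lower in Oct4 shRNA cells (median 0.19, negative under scaling to a common median), which is 30.4% and 21.7%, against 24.3% and 18.1% of all genes. However, 4 of the 23 were not above background in GFP shRNA cells. Of the 17 detected on all 4 arrays 3 rose and 5 fell, where 17.7% and 21% of all such genes did. The phosphofructokinase gene Pfkp (-1.71 ± 0.14, SE) and Pdk1, a kinase that restrains pyruvate dehydrogenase (-1.43 ± 0.14), fell, and the first glycolytic enzyme gene Hk1 (1.01 ± 0.21), Egln1, an oxygen-sensing hydroxylase (at least 1.33-fold), and Ndrg1 (at least 1.20-fold) rose. Rises numbered 2 and 3 without Oct4 shRNA replicates 1 and 2 and 0 under scaling to a common median, and falls 2 without either. Of 41 oxidative phosphorylation genes, of 53 listed, 3 rose and 4 fell (7.32% and 9.76%, below the shares of all genes, median -0.19), but 17 fell under scaling to a common median and 0 without Oct4 shRNA replicate 1. The cytochrome oxidase genes Cox6b1 (0.72 ± 0.15), Cox4i1 (0.64 ± 0.14, negative under scaling to a common median) and Cox7a2 (-0.96 ± 0.17) were among those called. Of 14 cholesterol synthesis genes, of 25 listed, 3 rose and 2 fell (median 0.23, negative under scaling to a common median). These are 21.4% and 14.3%, below the shares of all genes, and the calls did not hold without either Oct4 shRNA array. The other probes of their regulator Srebf2 (0.95 ± 0.20) were at -0.01 and -0.74. Sqle, among the rises (0.73 ± 0.14), had a dimmer second probe at -1.18, which was called lower.

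Among 38 chaperone and proteasome genes tested, of 48 listed, 2 rose and 3 fell (5.26% and 7.89%, below the 24.3% and 18.1% of all genes, median -0.15). The rises were those of the small heat shock protein genes Cryab and Hspb8 (1.55 ± 0.15). The falls were those of the proteasome genes Psmd2 (at least 5.49-fold), Psmb7 (-0.74 ± 0.16) and Psmd1 (-0.47 ± 0.14). The 33 members not called included most proteasome genes tested and the small heat shock protein gene Hspb1 (0.49 ± 0.16). Falls were fewer without either Oct4 shRNA array and numbered 9 under scaling to a common median. Of 9 germline genes, of 23 listed, 4 fell and 2 rose (median -0.02, with a sign that turned under cyclic loess). These are 44.4% and 22.2%, against 18.1% and 24.3% of all genes. However, 1 of the 9 was not above background in GFP shRNA cells and 1 not in Oct4 shRNA cells. Of the 5 detected on all 4 arrays 2 fell and 1 rose, where 21% and 17.7% of all such genes did. The falls were those of Tdrd12 (at least 1.52-fold), which acts in transposon silencing, Tex19.1 (-1.34 ± 0.15), which is also expressed in ES cells, the RNA-binding protein gene Dnd1 (-1.16 ± 0.15) and Ddx4 (-0.63 ± 0.15). Ddx4 was above background on 1 of the 2 Oct4 shRNA arrays. Kit (0.76 ± 0.21) and Rhox9 rose, and the call of Kit ended without either Oct4 shRNA array. Of 21 glutathione and redox genes, of 30 listed, 5 rose and 6 fell (median -0.01, positive under cyclic loess). These are 23.8% and 28.6%, with the rises near the 24.3% of all genes and the falls against 18.1%. Of the 19 detected on all 4 arrays 3 rose and 6 fell, where 17.7% and 21% of all such genes did. Gpx3, a secreted peroxidase (1.31 ± 0.19), was higher and the transferase gene Gsta4 (-1.37 ± 0.14) and the quinone reductase gene Nqo1 (-1.16 ± 0.14) were lower. Falls numbered 2 without either Oct4 shRNA array, and 1 rise was called under scaling to a common median.

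Median log2 fold changes by chromosome lay between -0.15 for chromosome 17, which carries Pou5f1, and 0.13 for chromosome 14.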
